A study of Mus musculus with 4 samples.

Results

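Oas2 and the guanylate-binding protein genes Gbp2, Gbp10 and Gbp11 are interferon-inducible genes of cell-autonomous defence, and they were chosen by name as 4 of the 282 genes of a deposited table. The table describes regulatory T cells (Tregs) of the mouse, a CD4+ population that holds immune responses in check. All 4 had more RNA in Tregs labelled as knockout for Mll1, the histone methyltransferase gene also called Kmt2a, than in Tregs labelled as wild type. Gbp11 differed 9.62-fold, Oas2 7.02-fold, Gbp10 2.91-fold and Gbp2 2.13-fold between the group means. The interferon gamma gene itself, Ifng, differed in the other direction, with a mean 5.26-fold lower in the knockout group.

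Tregs came from spleen and lymph nodes of male Foxp3RFP-Cre.RosaYFPMll1fl/fl mice aged 6 to 8 weeks, in which Cre is made with the red fluorescent protein (RFP) under Foxp3, and yellow fluorescent protein (YFP) from the Rosa locus marks cells where Cre has acted. The 2 YFP-positive libraries (RFP+YFP+, labelled MLL1KO) and the 2 YFP-negative libraries (RFP+YFP-, labelled WT) carry the mouse numbers 1 and 2. Both groups come from floxed mice with the same transgenes, so the wild-type label stands for Tregs without YFP and not for another strain. The labels do not say whether a mouse number is a single animal or a pool. Where a number is a single animal, the groups hold 2 animals, and the p-values below refer only to these 4 libraries. The limma p-values take most of their variance estimate from the listed genes together and little from each gene's own spread.

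The table is a selection: each listed gene has, in the authors' own columns, an adjusted p under 0.05 and a log2 fold change beyond 1 in either direction. It holds 282 genes out of 14239 that the authors' p-values imply were tested, or 1.98%, with 86 of them, or 0.604% of those tested, higher in YFP-positive Tregs. The 4 genes had been selected in this way on the same 4 libraries, so their direction and their tests below describe the table and are not independent evidence. The libraries did not overlap between groups in 100% of the listed genes, and limma called 100% of them, with 30.5% of the listed genes called higher, so passing that test sets no listed gene apart. Reads inferred from the values sum to between 196337 and 329350 per library over the listed genes, which is not the libraries' depth. Foxp3 and Kmt2a were not analysed here. Of 10 Treg marker genes only Gpr83 was listed, and its mean was 3.04-fold higher in the YFP-positive group. Genes were listed because they differed between the groups, so a listed marker cannot check the labelled cell type. The cell type was not tested.

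Interferons act through receptors that switch on a large set of defence genes, by way of promoter elements that include the interferon-stimulated response element and the gamma-activated site. OAS enzymes sense double-stranded RNA and make short oligoadenylates that signal its presence in the cell. Guanylate-binding proteins are large GTPases that assemble on the membranes of intracellular pathogens and their vacuoles, and in the mouse they lie in a cluster on chromosome 3 and another on chromosome 5. Of 11 annotated Gbp genes the table lists 3, which are 1 of 5 on chromosome 3 (Gbp2) and 2 of 6 on chromosome 5 (Gbp10 and Gbp11). Of the OAS genes it lists Oas2 alone. The other family members have no value here, so nothing can be said of their levels.

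Sequence decides how far the counts of the chromosome 5 guanylate-binding proteins can be told apart. The coding stretches of the same 90 positions (712 to 801 of each coding sequence, within 1 exon, minus strand, GENCODE vM21 on GRCm38) show this for Gbp10, its neighbour Gbp6 and Gbp11. They were picked as the positions where Gbp10 and Gbp6 are alike and Gbp11 differs most. Capitals mark bases that differ from Gbp10.
Gbp10 (chr5:105221964-105222053): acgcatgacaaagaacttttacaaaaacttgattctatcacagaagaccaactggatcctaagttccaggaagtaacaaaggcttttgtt
Gbp6 (chr5:105277761-105277850): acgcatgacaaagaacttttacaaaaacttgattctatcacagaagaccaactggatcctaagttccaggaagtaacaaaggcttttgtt
Gbp11 (chr5:105328441-105328530): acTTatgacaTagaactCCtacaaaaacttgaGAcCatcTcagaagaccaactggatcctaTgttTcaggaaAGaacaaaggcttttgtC
Gbp10 and Gbp6 have 0 differences in this stretch and Gbp11 has 14. Over the whole coding sequence, Gbp10 and Gbp6 differ at 30 of 1833 aligned bases (98.4% identity), whereas Gbp10 and Gbp11 differ at 177 of 1833 (90.3% identity). Gbp2 is more distant, with 59.8% identity to Gbp10 and 59.9% to Gbp11.

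Gbp10 and Gbp11 therefore share less sequence with each other than Gbp10 shares with Gbp6. Of all 50-base stretches of the Gbp10 transcript, 2.24% occur exactly in Gbp11 transcripts and 70.6% in Gbp6 transcripts. For stretches of 100 and 150 bases, 0% of Gbp10 occurs in Gbp11, against 56.1% and 44.6% in Gbp6. Of the 50-base stretches of Gbp11, 2.95% occur in Gbp10, 9.57% in Gbp8, 9.23% in Gbp4 and 7.87% in Gbp6, and 19.2% occur in any other gene. At 150 bases, 0.0786% of Gbp11 occurs in any other gene. In the annotation, Gm43302, a protein-coding gene model on the same strand (chromosome 5, 105214907 to 105293695), spans all of Gbp10. Of the 50-base stretches of Gbp10, 79.2% occur in Gm43302 and 82.5% in any other gene. At 150 bases, 63.2% of Gbp10 occurs in Gm43302 and 63.2% in any other gene. The read length and the treatment of reads that match several genes are not given in the sources used here, so the level of Gbp10 is uncertain with respect to Gbp6 and Gm43302. Oas2 shares 0% of its 50-base stretches with another gene, and Gbp2 shares 2.07%, with Gbp2b. Oas2 also overlaps a gene model on the opposite strand, Gm43068, and Gbp2 the microRNA gene Mir6381, and the strand setting of the counting is not given.

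**Figure D1:**
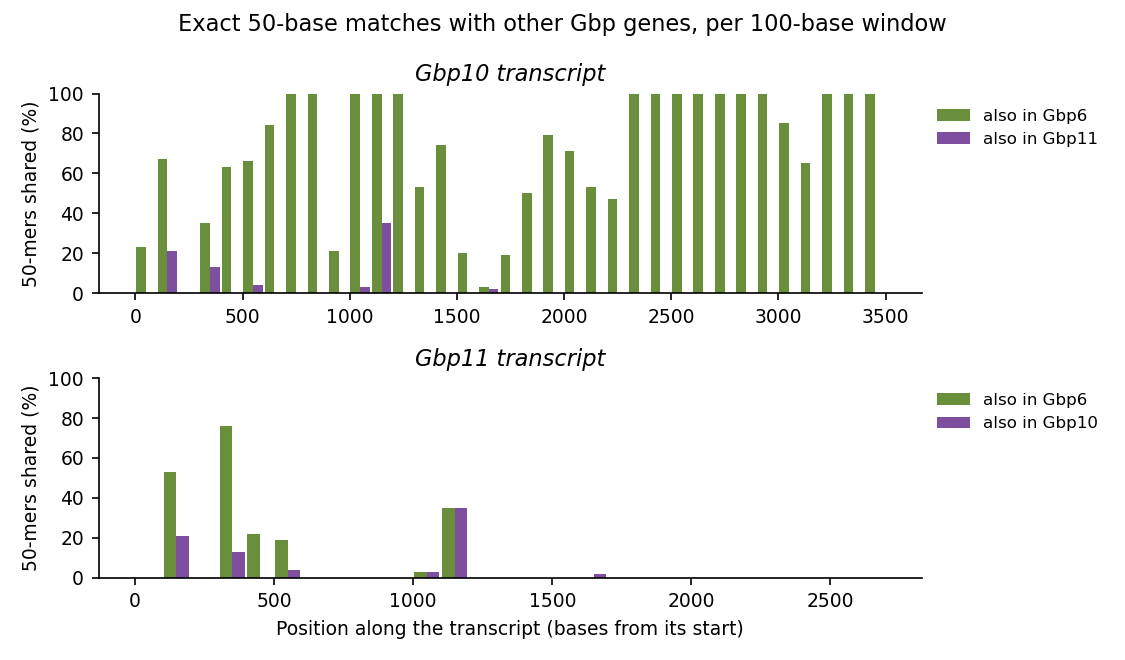
Share of 50-base stretches of the Gbp10 (top) and Gbp11 (bottom) transcripts, in percent by 100-base window from the transcript start, that occur exactly in another Gbp gene (green, Gbp6; purple, Gbp11 or Gbp10). Gbp10 matches Gbp6 over most of its length, 70.6% in all, and Gbp11 at a few windows, 2.24% in all.

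Gbp11 is annotated as a polymorphic pseudogene, that is, a gene with an intact reading frame in some strains and a broken frame in others. In the reference genome its reading frame meets a stop at codon 443 of 619, and the bases around that codon differ little from those of Gbp10 and Gbp6. The stretches below cover coding positions 1297 to 1359, which lie in 2 exons. Capitals again mark bases that differ from Gbp10, and the stop is the triplet tAg in the Gbp11 line.
Gbp10: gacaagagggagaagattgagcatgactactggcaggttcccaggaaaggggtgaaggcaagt
Gbp6: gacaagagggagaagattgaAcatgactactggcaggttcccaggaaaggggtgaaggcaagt
Gbp11: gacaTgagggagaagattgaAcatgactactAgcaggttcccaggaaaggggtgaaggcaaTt
Gbp6 differs from Gbp10 at 1 of these 63 bases and Gbp11 at 4. The RNA values of Gbp11 below hence refer to a transcript whose protein would be truncated in the reference strain. The strain background of the mice is not given in the sources used here.

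Oas2 (ENSMUSG00000032690, chromosome 5, 120730333 to 120749853, minus strand, mm10) encodes an OAS enzyme. Its normalized counts, which are gene reads divided by a size factor per library, were 151 in YFP-positive mouse 1, 61.5 in YFP-positive mouse 2, 17.6 in YFP-negative mouse 1 and 12.6 in YFP-negative mouse 2. Both YFP-positive libraries were above both YFP-negative libraries, and YFP-positive mouse 1 stood far above mouse 2. The means were 106 ± 63.1 and 15.1 ± 3.57 (SD, n = 2 each). The ratio was 8.54 within mouse 1 and 4.88 within mouse 2. The limma estimate, on log2(normalized count + 1), was a log2 fold change of 2.61 with an SE of 0.59 and an adjusted p = 0.000108. Oas2 was the member that most depended on a single library: without YFP-positive mouse 1 the log2 fold change was 1.97 (limma adjusted p = 0.0247). Leaving out YFP-positive mouse 2 instead gave 3.25 (limma adjusted p = 0.00389). The YFP-negative values rest on 18 and 14 inferred reads, with 95% exact Poisson intervals of 10.5 to 27.9 and 6.89 to 21.1 normalized counts. Those intervals cover counting error only and lie below the intervals of both YFP-positive libraries, 127 to 177 and 46.7 to 79.5.

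Gbp11 (ENSMUSG00000092021, chromosome 5, 105323042 to 105346472, minus strand) had the largest fold change of the 4 genes. It was counted at 98.8 and 92.3 in YFP-positive mice 1 and 2, and at 11.8 and 8.10 in YFP-negative mice 1 and 2. The YFP-positive libraries lay close together and the groups were well apart. The ratio was 8.40 within mouse 1 and 11.4 within mouse 2. The means were 95.5 ± 4.63 and 9.93 ± 2.59 (SD, n = 2 each), and the limma log2 fold change was 3.16 with an SE of 0.60 (adjusted p = 1.49e-05). The YFP-negative values rest on 12 and 9 inferred reads, with 95% exact Poisson intervals of 6.08 to 20.6 and 3.70 to 15.4 normalized counts. In the authors' deposited table its log2 fold change of 3.27 ranked 6 among the 86 higher genes, and that of Oas2, 2.81, ranked 14.

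Gbp10 (ENSMUSG00000105096, chromosome 5, 105215699 to 105239533, minus strand), whose coding sequence is nearly that of Gbp6, was counted at 728 and 695 in YFP-positive mice 1 and 2. In YFP-negative mice 1 and 2 it was counted at 242 and 247. Libraries of a group lay within a few percent of each other, and the groups did not overlap. The ratio was 3.01 within mouse 1 and 2.81 within mouse 2. The means were 711 ± 23.6 and 245 ± 3.75 (SD, n = 2 each), and the limma log2 fold change was 1.53 ± 0.34 (SE), adjusted p = 0.000103. The value may hold reads of Gbp6 or Gm43302, or lack reads that match several of these genes. The difference is hence that of the reads assigned to Gbp10.

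Gbp2 (ENSMUSG00000028270, chromosome 3, 142620602 to 142638008, plus strand), a guanylate-binding protein of the chromosome 3 cluster, was the most abundant member. It was counted at 2657 and 2848 in YFP-positive mice 1 and 2, and at 1344 and 1244 in YFP-negative mice 1 and 2. The groups did not overlap, and the difference was the smallest of the 4. The ratio was 1.98 within mouse 1 and 2.29 within mouse 2. The means were 2753 ± 135 and 1294 ± 70.5 (SD, n = 2 each), and limma estimated the log2 fold change at 1.09 ± 0.34 (SE), adjusted p = 0.00269. Gbp2 lay near the limit of the authors' selection: its log2 fold change in the authors' deposited table was 1.09, rank 82 of 86, where the smallest listed rise was 1.00. When limma p was adjusted over 14239 genes, Gbp2 did not pass (adjusted p = 0.136), whereas the remaining alternatives gave limma adjusted p from 0.00149 to 0.0435.

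**Figure D2:**
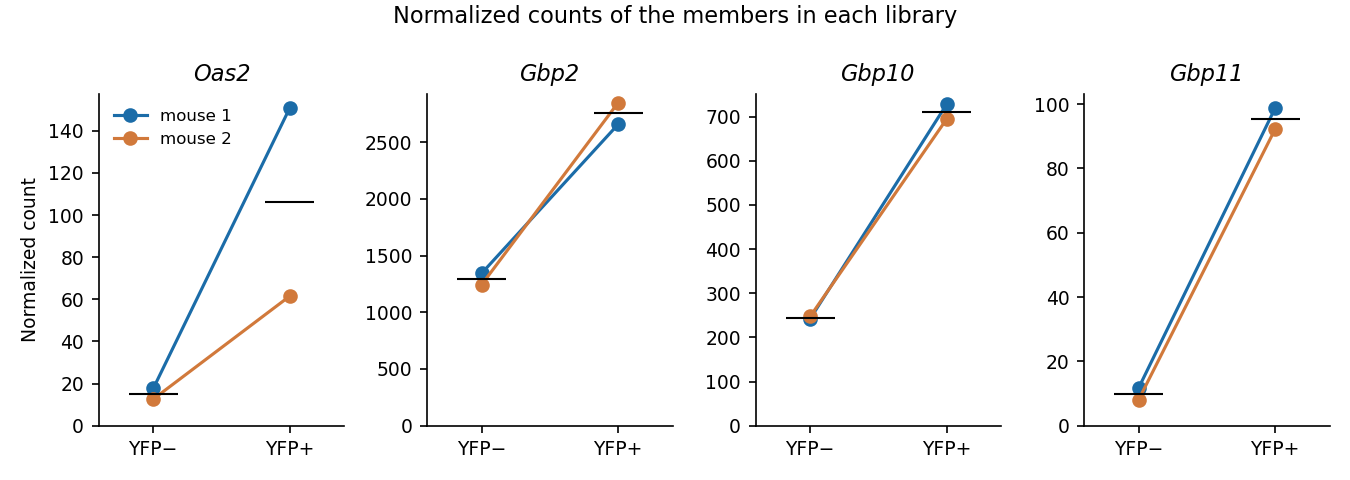
Normalized counts (linear axes from 0) of Oas2, Gbp2, Gbp10 and Gbp11 in YFP-negative and YFP-positive Tregs; lines join libraries of the same mouse number and black bars are group means (n = 2). In each panel both YFP-positive libraries lie above both YFP-negative libraries, and Oas2 shows the widest YFP-positive pair, 151 and 61.5.

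The share of Gbp11 among the reads of Gbp10 and Gbp11 differed between the groups. This follows from their unlike fold changes and is not a separate result. The reads of Gbp10 are uncertain with respect to Gbp6 and Gm43302, and so is the share. Gbp11 took 11.9% of the inferred reads of the pair in YFP-positive mouse 1 (95% Wilson interval 9.88 to 14.4%, of 795 reads) and 11.7% in mouse 2 (9.60 to 14.2%, of 742). In YFP-negative mouse 1 it took 4.63% (2.67 to 7.92%, of 259) and in mouse 2 3.17% (1.68 to 5.91%, of 284). The intervals of the YFP-positive libraries do not overlap those of the YFP-negative libraries, although they cover counting error only. Summed to a single feature, the pair had group means of 807 ± 28.3 (YFP-positive) and 255 ± 1.15 normalized counts (YFP-negative; SD, n = 2 each). The sum thus differed 3.17-fold, with 3.26 within mouse 1 and 3.08 within mouse 2. Limma estimated its log2 fold change at 1.66 ± 0.34 (SE), adjusted p = 4.00e-05.

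Levels were compared between the 4 genes as normalized counts per kilobase of the deposited gene length. On that scale the YFP-positive mean of Gbp2 was 1094 and the YFP-negative mean 514, and Gbp10 followed at 184 and 63.2. Gbp11 was at 35.5 and 3.69, and Oas2 at 23.8 and 3.40. Gbp2, Gbp10 and the 2 lower genes were separate in every library. Gbp11 and Oas2 did not differ beyond the spread between libraries in YFP-negative Tregs, where Gbp11 was at 4.37 and 3.01 per kilobase and Oas2 at 3.96 and 2.83. In YFP-positive Tregs the per-kilobase level of Oas2, 33.9 and 13.8, lay below that of Gbp11, 36.7 and 34.3, but only narrowly in mouse 1. In these bulk samples, a change in the number of cells that express a gene and a change in RNA per cell cannot be told apart.

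**Figure D3:**
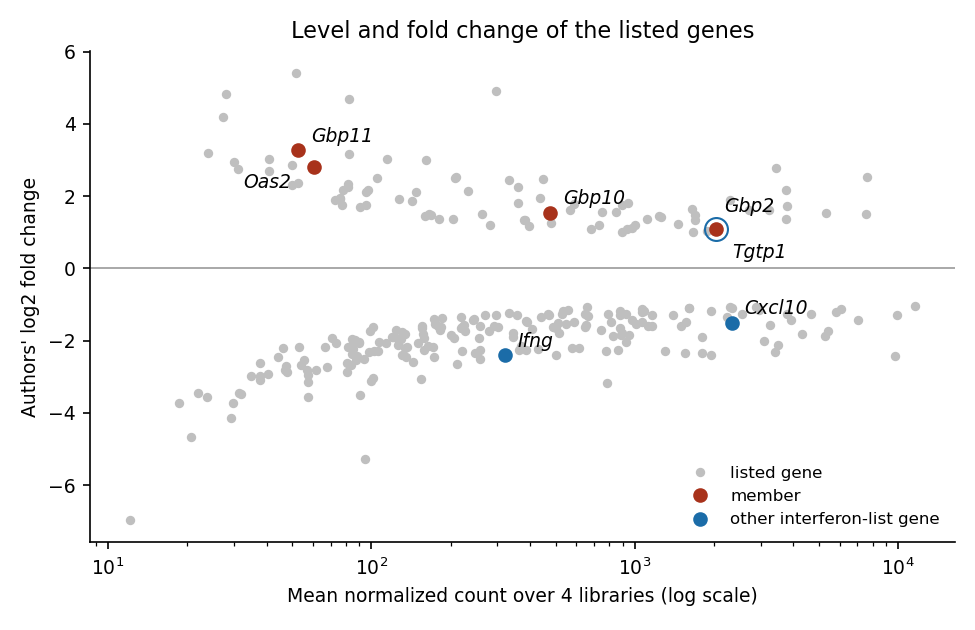
Authors' log2 fold change (YFP-positive over YFP-negative) against the mean normalized count over the 4 libraries (log axis) for the 282 listed genes (grey), the members (red) and other interferon-list genes (blue; Tgtp1 is the open ring around Gbp2). Gbp11 and Oas2 lie among low, strongly changed genes, and Gbp2 among abundant genes near the selection limit of 1.

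The other genes of the interferon pathway were taken from lists that cover each branch of the pathway, whether or not its genes were in the table. Of 131 symbols of interferon-induced genes (some being older and newer symbols of the same gene), 6 were in the table. Of all genes tested, 1.98% were listed. Of the 6, 5 were higher and 1 lower in YFP-positive Tregs, where 30.5% of all listed genes were higher. The median log2 fold change of these 6 genes in the authors' deposited table was 1.31, beside -1.55 for all 282 listed genes. The 4 chosen genes make up most of the 6 and 4 of the 5 higher ones. Both the count and the median are therefore largely theirs. Besides the 4 members, the listed genes were Tgtp1, which was higher, and Cxcl10, which was lower. The list of 60 type I interferon-stimulated symbols, such as the Ifit, Mx and Isg15 genes, had 0 in the table. So did the list of 26 symbols of interferon signalling, which includes receptors, kinases, transcription factors, inhibitors and genes of nucleic acid sensing. With 1.98% of the genes tested being listed, 0 is near that share for lists of these sizes. How many of the symbols were tested is not known. The genes of both lists have no value here, which does not show that they were alike in the 2 groups.

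Tgtp1, a guanosine triphosphatase gene of the immunity-related GTPase family (1 of 7 listed symbols in the table), was counted at 2192 and 3309 in YFP-positive mice 1 and 2. In YFP-negative mice 1 and 2 it was counted at 1152 and 1442, so the groups did not overlap. The limma log2 fold change was 1.06 ± 0.35 (SE), adjusted p = 0.00376. The call of Tgtp1 was lost when YFP-positive mouse 2 was left out (0.77, limma adjusted p = 0.112), when YFP-negative mouse 1 was left out (0.90, limma adjusted p = 0.0541) and when adjusted over 14239 genes (limma adjusted p = 0.190). Of its 50-base stretches, 89.4% occur in Tgtp2, so its reads cannot be assigned to Tgtp1 with certainty.

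Cxcl10, the gene of an interferon gamma-induced chemokine that attracts CXCR3-bearing T cells, went the other way. It was counted at 1298 and 1136 in YFP-positive mice 1 and 2, against 4477 and 2441 in YFP-negative mice 1 and 2, and its log2 value fell by 1.44 ± 0.36 (SE; limma adjusted p = 0.000284). Ifng, which encodes interferon gamma, was counted at 81.1 and 125 in YFP-positive mice 1 and 2. In YFP-negative mice 1 and 2 it was counted at 484 and 600, and its log2 value fell by 2.41 ± 0.38 (SE; limma adjusted p = 8.72e-07). Of 20 interferon genes, Ifng was the only gene in the table.

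Of 12 genes that promote interferon gamma production or mark cells that make it, 5 were in the table, beside 1.98% of the genes tested. All 5 were lower, beside 69.5% of all listed genes. Tbx21, which encodes the transcription factor T-bet, had group means of 75.6 ± 1.04 and 236 ± 69.4 (SD, n = 2 each). Cxcr3, the receptor gene for Cxcl10, had means of 1313 ± 720 and 5695 ± 367, and Ccl5, a chemokine gene, had 384 ± 131 and 1388 ± 195. The interleukin-18 receptor genes Il18r1 and Il18rap had means of 462 ± 127 and 89.7 ± 60.6 in YFP-positive Tregs, against 1113 ± 325 and 425 ± 258 in YFP-negative Tregs. All 5 passed by limma, and 3 of them lost the call under an alternative while the direction was kept. The log2 fold change of Tbx21 went from -1.60 to -1.30 when YFP-negative mouse 1 was left out (limma adjusted p = 0.0809). That of Il18r1 went from -1.26 to -0.98 when YFP-positive mouse 1 was left out (limma adjusted p = 0.0748), and to -0.74 with all libraries scaled to equal totals over the listed genes (limma adjusted p = 0.0665). That of Il18rap went from -2.27 to -1.61 when YFP-negative mouse 2 was left out (limma adjusted p = 0.0866). When 1 library was left out, the limma log2 fold change ranged from -2.82 (without YFP-positive mouse 2) to -1.64 (without YFP-positive mouse 1) for Cxcr3 and from -3.01 to -1.53 for Il18rap, with the same libraries left out.

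**Figure D4:**
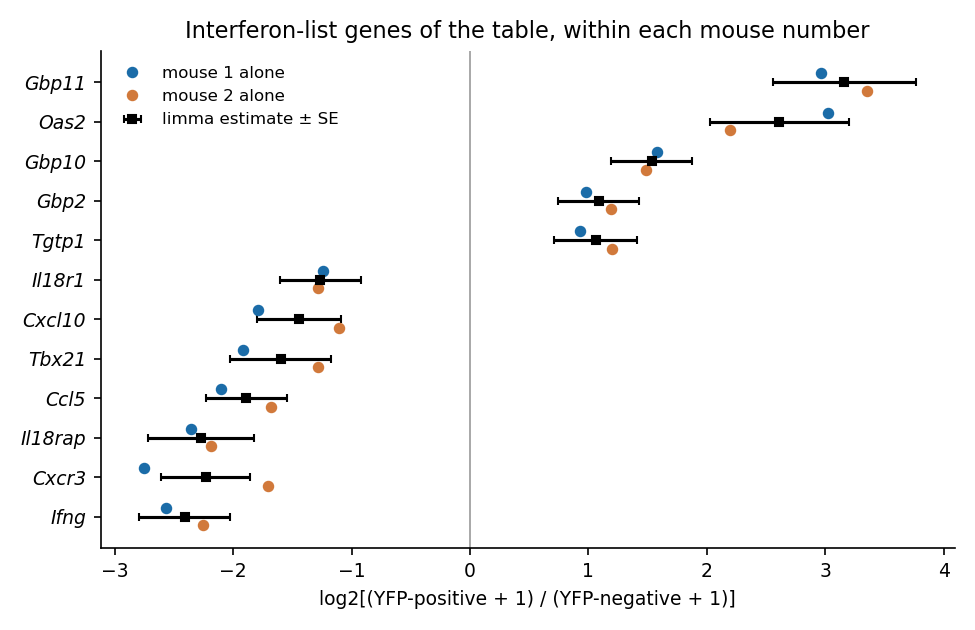
Log2 ratio of YFP-positive to YFP-negative Tregs (normalized count + 1) for the 12 genes of the interferon lists in the table, within mouse 1 (blue), within mouse 2 (orange) and as the limma estimate with its SE (black). The 4 members and Tgtp1 lie above 0 in both mice, and Cxcl10, Ifng and the 5 genes linked to interferon gamma production lie below 0 in both.

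The RefSeq promoter table (GRCm38.p6) holds 1 of the 4 members, Gbp2. The 250 bases before each start were searched on both strands for the core of the interferon-stimulated response element (GAAA, any 2 bases, GAAA) and for the gamma-activated site, TTCNNNGAA. The first was found in 978 of 32851 promoters of that length, or 2.98%, and the second in 2306, or 7.02%. Counted by gene, 3.46% of 27025 genes had the response element core. It was found in 9 of the 192 table genes with a promoter sequence (4.69%). Of the 52 higher genes among them 4 had it (7.69%), and Gbp2 and Tgtp1 are among those 4. TTCNNNGAA was found in 8.13% of the 27025 genes, 7.29% of the 192 and 7.69% of the 52. The stretches below show the matches in Gbp2 and in both other interferon-induced genes of the table, 30 bases each in the direction of the gene. Capitals mark the matches, which do not overlap each other, and the response element core reads TTTC, any 2 bases, TTTC where it lies on the opposite strand, as in Gbp2.
Gbp2 (chr3:142620594-142620623, plus strand): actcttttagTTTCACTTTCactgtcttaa
Tgtp1 (chr11:48992309-48992338, minus strand): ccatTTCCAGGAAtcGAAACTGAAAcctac
Cxcl10 (chr5:92349083-92349112, minus strand): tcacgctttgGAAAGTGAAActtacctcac
The matches of the response element core begin 59, 77 and 213 bases before the RefSeq start of Gbp2, Tgtp1 and Cxcl10. In the GENCODE annotation the Gbp2 gene starts at 142620602, so the same match lies just inside the annotated gene. The Tgtp1 gene, on the minus strand, starts at 48994172 there, so its stretch lies well inside the annotated gene. The Cxcl10 stretch lies before the annotated start of that gene, 92348889. Tgtp1 also has a match of TTCNNNGAA at 88 bases before the RefSeq start, and Gbp2 and Cxcl10 have none. Ifng has a match of TTCNNNGAA at 249 bases. Il18r1, with several RefSeq starts, has matches at 219 and 152 bases before a single start. Ifng and Il18r1 were lower in YFP-positive Tregs. Cxcr3, Tbx21 and Il18rap, also lower, have neither motif. Gbp2, Tgtp1 and Cxcl10 hold the same response element core, while Gbp2 and Tgtp1 were higher and Cxcl10 was lower in YFP-positive Tregs. A match of letters is a description and not a bound site.

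By profile over the 4 libraries, the genes most like each member were found as those with the smallest Euclidean distance between values of log2(normalized count + 1), each centred on the gene's mean. With 4 libraries in 2 groups, such likeness mostly repeats the group difference and its size. Nearest to Oas2 were Lbp (distance 0.22), the gene of the lipopolysaccharide-binding protein, Ampd1 (0.41), an adenosine monophosphate deaminase gene, and Tcrg-C1 (0.53), a constant segment of the T cell receptor gamma chain. In each of these 3 genes, as in Oas2, YFP-positive mouse 1 was above mouse 2: Lbp was counted at 72.8 and 36.1, Ampd1 at 120 and 56.2 and Tcrg-C1 at 380 and 193. Nearest to Gbp11 were Ly6c1 (0.37), Sorcs2 (0.48) and Zcchc24 (0.52). Nearest to Gbp10 were Mmp11 (0.15), a metalloproteinase gene, Rcn1 (0.15) and G430095P16Rik (0.19). Nearest to Gbp2 were Gm8172 (0.095), the ribosomal protein pseudogene Rpl23a-ps3 (0.17) and Mtss1 (0.19). No member was among the 3 nearest profiles of another member.

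**Figure D5:**
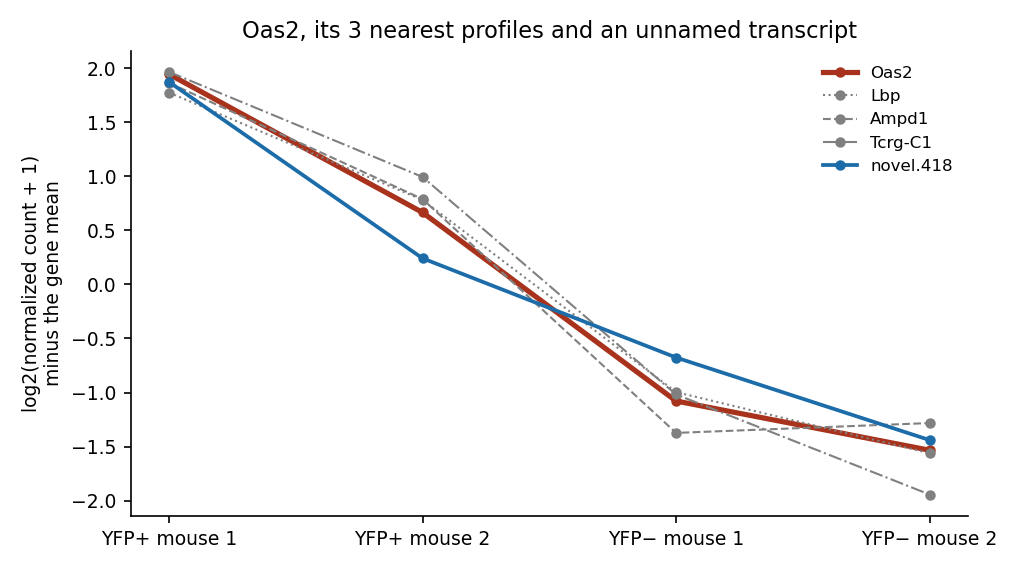
Values of log2(normalized count + 1) minus the gene's mean, in each library, for Oas2 (red), its 3 nearest profiles Lbp, Ampd1 and Tcrg-C1 (grey) and an unnamed transcript of chromosome 5 (blue); lines only join values of a gene. All 5 were highest in YFP-positive mouse 1, and YFP-positive mouse 2 lay between that library and the YFP-negative libraries.

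Some genes from marker lists of other cell types were in the table. They were listed because they differed between the groups, so they do not show that such cells were present. Igkc, 1 of 9 B cell markers and the only B cell marker in the table, was counted at 249 to 280 in YFP-positive and at 1072 to 1503 in YFP-negative Tregs. Gzma, 1 of 8 natural killer cell markers in the table, was at 7.28 to 37.1 against 109 to 253. Of 7 stromal, endothelial and epithelial markers 2 were listed, and they moved in opposite directions: Pecam1 had means of 1392 against 605 (2.30-fold higher in YFP-positive Tregs) and Epcam of 428 against 1189 (2.78-fold lower). Their summed level, 1818 to 1822 against 1744 to 1843, hides both changes. Of 8 erythroid and platelet markers 2 were listed, also in opposite directions. Gata1 had means of 756 against 137 (5.53-fold higher) and Car2 of 69.4 against 246 (3.54-fold lower), so their summed level of 735 to 916 against 329 to 436 follows Gata1. Car2 lost its call when YFP-negative mouse 2 was left out (log2 fold change -1.52, limma adjusted p = 0.0664). The lists for CD8 T cells, monocytes and macrophages, dendritic cells and granulocytes had 0 genes in the table, beside 1.98% of the genes tested. The part of such cells in the values of Oas2, Gbp2, Gbp10 and Gbp11 was not tested.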

How the data were processed

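RNA of 300000 sorted Tregs per population, at a purity above 95%, was sequenced in 4 libraries, per the labels' protocols. Per the submitters' processing notes the tools were HISAT2 2.0.5, StringTie 1.3.3b, DESeq2 1.16.1 and featureCounts 1.5.0-p3, with mm10, whereas the series' design text names DEGSeq 1.16.1. The deposited signal values are read counts of genes after the authors' division by library size factors. The log2 fold changes are the authors' own and give YFP-positive over YFP-negative. The p-values and adjusted p-values were computed by the authors with Benjamini-Hochberg adjustment.

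Reads were inferred from the step of each library, since 100% of the 282 values per library were whole multiples of it, but only 13 to 40 values of up to 20 reads bear on it, so no count model was run. The main test was limma 3.58.1 (R 4.3.3) on log2(value + 1), with a variance trend, no mouse block and adjustment over the 282 listed genes. The limma step was checked on simulated data that included unchanged genes. The listed genes were all selected as changed, so that check does not bear on the p-values given here. The prior variance of limma comes from selected genes and carries most of the weight, with 51.5 total degrees of freedom per gene. Fold changes on this scale understate those of low genes. Across the 282 genes, the mouse 1 libraries of both groups tended to deviate from their means in the same direction (Pearson's r = 0.395, Spearman's rho = 0.411, genes not being independent). The numbers were taken to pair the libraries in the ratios within a mouse and in the block fit. The main test left the pairing out, and its adjusted p-values for the members were smaller than those with the block. Exact sequence matches used the GENCODE vM21 transcripts, in which 273 of the 282 gene IDs were found, 262 with the deposited start and end. Promoters came from RefSeq.

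The named genes were the 4 members, all genes of the interferon and marker lists found in the table, and the 3 nearest profiles of each member. The members and lists were chosen with earlier results of these data known.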

Additional observations from a re-analysis of the deposited data

How the results depend on the processing

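Oas2, Gbp10 and Gbp11 kept their direction and an adjusted p under 0.05 by limma under the alternatives run, and Gbp2 under all but 1: adjusted over 14239 genes, its log2 fold change of 1.09 had adjusted p = 0.136, since more tests were counted. The direction was fixed by the authors' selection. With the mouse as a replicate block, the limma adjusted p was 0.00272 for Oas2, 0.0113 for Gbp2, 0.00232 for Gbp10 and 0.00225 for Gbp11, and the block changed no call of these genes. Leaving out 1 library gave log2 fold changes of 1.97 to 3.25 for Oas2, 1.03 to 1.14 for Gbp2, 1.50 to 1.57 for Gbp10 and 2.92 to 3.41 for Gbp11. Such a fit gives the single remaining library the spread of the opposite group. Pseudocounts of 0.1 and 5 gave 2.68 and 2.35 for Oas2 and 3.28 and 2.76 for Gbp11. Scaling the libraries to equal totals over the listed genes raised the log2 fold change of a gene by a median of 0.52. Of the listed genes 69.5% were lower in YFP-positive Tregs, so this scaling shifts log2 fold changes upward by construction. The values of the 4 genes became 3.12, 1.61, 2.06 and 3.66 for Oas2, Gbp2, Gbp10 and Gbp11. Of the 282 genes, 236 passed over 14239 tests and 257 to 269 without 1 library. No fit with edgeR or DESeq2 was run, since only normalized counts of a selection of genes were at hand. Read numbers of 9 to 18 limit Oas2 and Gbp11 in YFP-negative Tregs.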

Other observations

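An unnamed transcript of the table lies on chromosome 5 (114890346 to 114894111, plus strand), 2824 bases before Oasl2, another OAS family gene (114896936 to 114912234). It was chosen after its values were seen. The deposited description assigns it similarity to a retroviral Gag polyprotein. Its normalized counts were 206 and 65.7 in YFP-positive mice 1 and 2, and 34.3 and 19.8 in YFP-negative mice 1 and 2. Its centred profile was the fourth nearest to that of Oas2 among 281 other genes, at a distance of 0.60. Its limma log2 fold change was 2.12 ± 0.55 (SE), adjusted p = 0.000488. Without YFP-positive mouse 1 the log2 fold change was 1.30 and the call was lost (limma adjusted p = 0.0562), whereas without YFP-positive mouse 2 it was 2.93 (limma adjusted p = 0.00434). The call was also lost without YFP-negative mouse 2 (1.73, limma adjusted p = 0.0962). Oasl2 itself has no value here.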
